A study of Mus musculus with 12 samples.

Results

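The 10 genes described here carry iron into and out of liver cells or set the output of hepcidin, the hormone that controls iron in the body. They are Hamp, Tfrc, Tfr2, Slc40a1, Slc11a2, Trf, Bmp6, Smad7, Id1 and Tmprss6. Each was found through a row of the value table whose platform annotation gives its symbol alone. All 10 were measured, with 1 row each, among the 19938 genes tested. The livers came from 6 mice given an adenovirus for ChREBP, the glucose-responsive transcription factor encoded by Mlxipl, and from 6 mice given an adenovirus for GFP. All were male C57BL/6J mice with a labelled age of 8 weeks, injected through the tail vein and studied in the fed state 3 weeks later. Each liver was read on 1 Affymetrix array. Which promoter drove the viruses, and which isoform of ChREBP from which species they carried, is not given in the sources used here.

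Hepcidin, made by hepatocytes from Hamp, binds the iron exporter ferroportin (Slc40a1) and causes its loss from the cell surface. Its gene is switched on when bone morphogenetic proteins, among them BMP6 from sinusoidal endothelium, act through hemojuvelin and SMAD proteins, and transferrin receptor 2 (Tfr2) takes part as a sensor of iron-loaded transferrin. The protease matriptase-2 (Tmprss6) cleaves hemojuvelin and so lowers the signal. Inflammation reaches the same gene through interleukin-6 and STAT3.

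Values are RMA values on the log2 scale, and each difference is ChREBP minus GFP with its standard error (SE). The threshold was an adjusted p of 0.05 in limma, with Benjamini-Hochberg adjustment over the 19938 genes. Mlxipl, which checks the labels, ran from 10.74 through a median of 10.93 to 10.96 on ChREBP arrays and from 9.07 through 9.27 to 9.61 on GFP arrays. It rose by 1.57 (SE 0.09, limma adjusted p = 2.86e-08). The array does not tell vector transcript from that of the mouse gene. Array medians lay between 5.96 and 6.05. Markers fixed for hepatocytes were high in every liver, with a mean over the list of 12.10 to 12.28 on ChREBP arrays and 12.42 to 12.46 on GFP arrays. Pancreatic acinar markers averaged 12.09 on ChREBP 4 and 11.90 on ChREBP 5, so those arrays read high for pancreas transcripts. Whether these transcripts came from pancreas tissue or from liver cells was not tested. The acinar markers averaged 5.46 to 7.23 on the other ChREBP arrays and 5.48 to 5.66 on GFP arrays. ChREBP 2 (7.23) and ChREBP 6 (6.30) also stood above every GFP array in these markers. In whole liver, fewer cells of a type and less RNA per cell cannot be told apart.

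Of the 10 genes, 5 passed, against 27.0% of all genes. Id1, Tfrc and Slc40a1 rose, 3 genes against 13.3% of all genes called higher, and Tfr2 and Tmprss6 fell, 2 genes against 13.7% called lower. The arrays of the groups did not overlap in 5 of the 10 (Id1, Tfrc, Tfr2, Tmprss6 and Trf), against 15.2% of all genes. The median difference of the 10 was -0.04, as it was over all genes (-0.04), while the median size was 0.33 for the 10 and 0.11 over all genes. The shares and the median size over all genes include dim genes, and no comparison with genes of like level was made. The 10 genes were chosen with earlier results of these data known, so the counts are a description. Hamp itself did not pass.

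**Figure D1:**
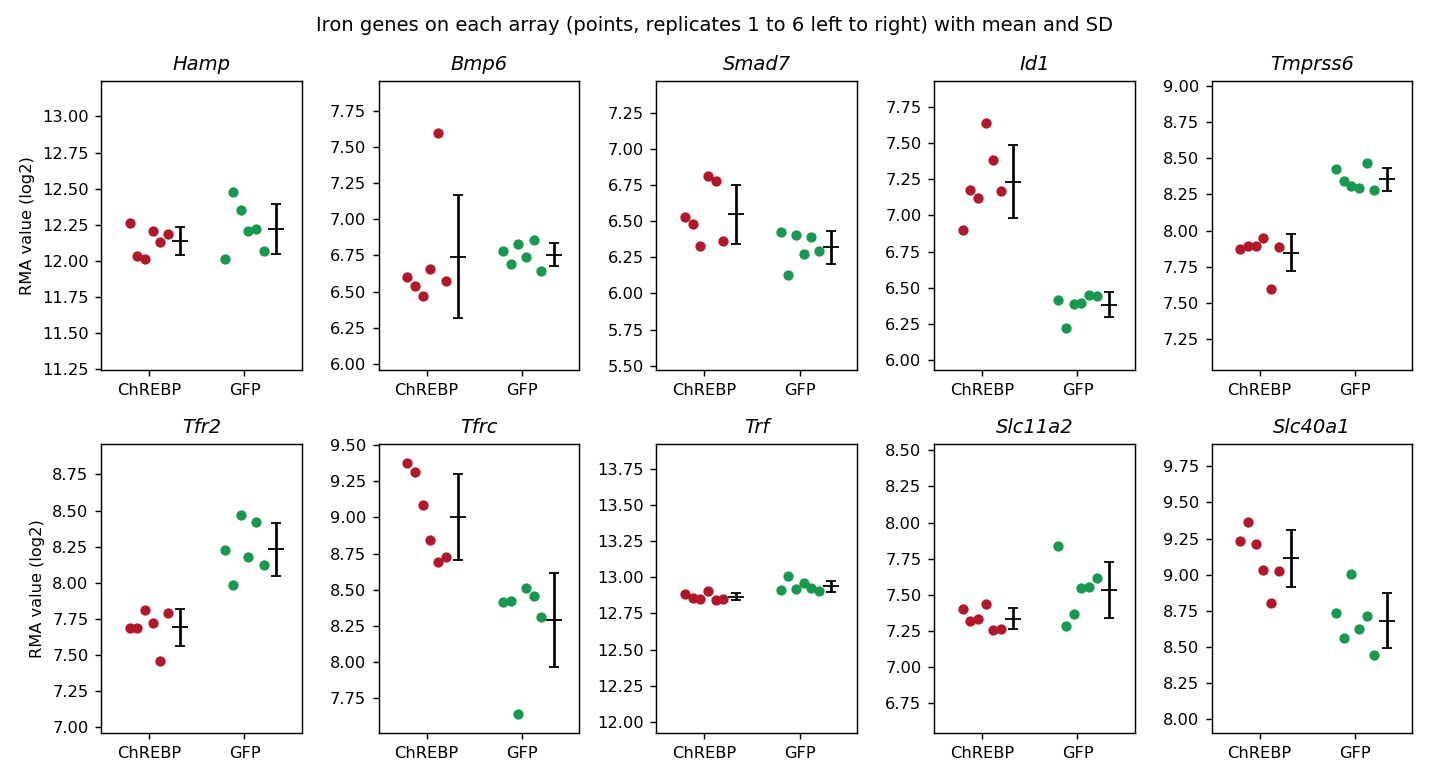
RMA values (log2) of the 10 iron genes, with 6 ChREBP arrays (red points) left of 6 GFP arrays (green points) and bars in black giving mean and SD; every panel spans the same height of 2 log2 units. Id1 and Tfrc lie higher, and Tfr2, Tmprss6 and Trf lower, with no overlap of ChREBP and GFP arrays, Hamp overlaps, and in Bmp6 the array ChREBP 5 stands at 7.60.

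Hamp ranged from 12.01 through a median of 12.16 to 12.26 on ChREBP arrays and from 12.01 through 12.21 to 12.48 on GFP arrays. The groups overlapped over the whole span of the ChREBP arrays. Hamp averaged 12.14 ± 0.10 in ChREBP livers and 12.22 ± 0.17 in GFP livers (SD, n = 6 each). The difference was -0.08 (SE 0.08, limma adjusted p = 0.446), with a 95% interval of -0.25 to 0.08, or 0.842-fold to 1.06-fold. The exact two-sided permutation test gave p = 0.329. The interval spans both a small fall and a small rise of Hamp. These values lie near the top of the scale, whose highest value was 13.68, and the response of the probes at that level was not tested.

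The mouse has a close copy of the hepcidin gene, Hamp2, which was not among the 10 genes and was taken up after its values were seen. Hamp2 ranged from 10.17 through 10.59 to 10.75 on ChREBP arrays and from 8.51 through 8.85 to 9.72 on GFP arrays, with no overlap. It averaged 10.55 ± 0.21 in ChREBP livers and 9.02 ± 0.48 in GFP livers (SD, n = 6 each). It rose by 1.53 (SE 0.18, limma adjusted p = 2.84e-05), or 2.89-fold. Rows of such close copies can share signal, so the split of a change between Hamp and Hamp2 is uncertain.

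The promoters of the copies are shown as a description of sequence, and their part in the different readings of Hamp and Hamp2 was not tested. Promoter sequence from RefSeq (GRCm38.p6) was used here for 4 of the 10 genes (Hamp, Tfrc, Tfr2 and Bmp6), in 7 windows, each with 250 bases before and 50 after a start site. The stretches below run 5′ to 3′ on the minus strand from 160 to 61 bases before the start, at chr7:30944090-30944189 for Hamp and chr7:30924242-30924341 for Hamp2. Capitals mark GGCGCC, the core of the BMP-responsive element, and TTCNNNGAA, the motif of STAT factors.
Hamp: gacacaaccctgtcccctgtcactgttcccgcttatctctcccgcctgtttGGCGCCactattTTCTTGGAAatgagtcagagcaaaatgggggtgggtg
Hamp2: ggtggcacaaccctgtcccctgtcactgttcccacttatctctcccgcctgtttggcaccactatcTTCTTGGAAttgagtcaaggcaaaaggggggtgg

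Over the 250 bases before the start the copies were 89.7% identical. Hamp held GGCGCC from 109 bases before its start, and Hamp2 differed there by G4A, counted from the first base of the motif with the Hamp base first, so that no GGCGCC was left in the Hamp2 window. The STAT motif stood in both, from 97 bases before the start of Hamp and 94 before that of Hamp2. Motifs were searched on both strands of the 300-base windows, and the matches printed do not overlap. GGCGCC occurs in 11.9% and TTCNNNGAA in 8.30% of all 32851 promoter windows. The first of the 2 Tfrc windows also held a GGCGCC, 89 bases before the start. CACGTG is an E-box, the kind of site of which the ChREBP response element has a pair. It occurs in 7.15% of all windows and was found in 1 of the 7 windows, that of Bmp6, from 127 bases before the start. Only single exact CACGTG was searched, so these counts do not tell whether the paired element is present. A match is a description of letters and not a bound site.

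Upstream of hepcidin, the ligand gene Bmp6 had a difference near 0 over all arrays, and this value rested on 1 array. Bmp6 ranged from 6.47 through a median of 6.59 to 7.60 on ChREBP arrays and from 6.64 through 6.76 to 6.85 on GFP arrays. ChREBP 5 gave the 7.60, and the other 5 ChREBP arrays reached at most 6.66. The difference was -0.02 (SE 0.15, limma adjusted p = 0.947, 95% interval -0.35 to 0.32). Without ChREBP 5 it was -0.19 (adjusted p = 0.0188), and without ChREBP 4 and ChREBP 5 it was -0.21 (adjusted p = 0.0148), both past the threshold. Of 10 sinusoidal endothelial markers 1, Lyve1, was higher and 0 were lower, beside 13.3% of all genes called higher and 13.7% lower. The mean level of these markers ran from 7.87 to 8.27 on ChREBP arrays and from 8.10 to 8.30 on GFP arrays. It was lowest on ChREBP 4. The part of these cells, or of the pancreas transcripts, in the Bmp6 values was not tested.

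Id1, a target gene of BMP and SMAD signalling that encodes an inhibitor of transcription factors with a helix-loop-helix, showed the largest difference of the 10 genes. It ranged from 6.90 through a median of 7.17 to 7.64 on ChREBP arrays and from 6.22 through 6.40 to 6.45 on GFP arrays. The lowest ChREBP array stood above the highest GFP array. Id1 averaged 7.23 ± 0.25 in ChREBP livers and 6.38 ± 0.08 in GFP livers (SD, n = 6 each). It rose by 0.85 (SE 0.10, limma adjusted p = 1.96e-05), or 1.80-fold. The highest values came from ChREBP 4 (7.64) and ChREBP 5 (7.38), the arrays highest in pancreatic acinar markers. Without both the rise was 0.71 (limma adjusted p = 1.10e-05). Acinar markers also stood above every GFP array on ChREBP 2 and ChREBP 6, and the part of pancreas transcripts in Id1 was not tested.

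Smad7, the inhibitory SMAD that the pathway induces against itself, had a positive difference that did not pass. It ranged from 6.32 through a median of 6.50 to 6.81 on ChREBP arrays and from 6.12 through 6.34 to 6.43 on GFP arrays, so that the groups overlapped. The difference was 0.23 (SE 0.09, limma adjusted p = 0.0722). Smad7 passed without ChREBP 3 (0.27, adjusted p = 0.0382) or ChREBP 6 (0.27, adjusted p = 0.0481), and it stood at 0.10 without ChREBP 4 and ChREBP 5. Like Id1, it was highest on those 2 arrays.

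Tmprss6, the gene of the protease that restrains the hepcidin signal, fell. It ranged from 7.60 through a median of 7.89 to 7.95 on ChREBP arrays and from 8.28 through 8.33 to 8.47 on GFP arrays, with no overlap. Tmprss6 averaged 7.85 ± 0.13 in ChREBP livers and 8.35 ± 0.08 in GFP livers (SD, n = 6 each). It was 0.704-fold, a difference of -0.51 (SE 0.06, limma adjusted p = 2.84e-05).

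Tfr2, the transferrin sensor gene of hepatocytes, also fell. It ranged from 7.46 through a median of 7.70 to 7.81 on ChREBP arrays and from 7.99 through 8.20 to 8.47 on GFP arrays. The groups did not overlap here either. Tfr2 averaged 7.69 ± 0.13 in ChREBP livers and 8.23 ± 0.18 in GFP livers (SD, n = 6 each). It was 0.687-fold, a difference of -0.54 (SE 0.08, limma adjusted p = 0.000262). Hepatocyte markers moved with them, since 5 of 6 fell, beside 13.7% of all genes called lower. The 5 markers fell by 0.11 to 0.43, among them the liver factor gene Hnf4a by 0.33. Their part in the falls of Tmprss6 and Tfr2 was not tested.

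**Figure D2:**
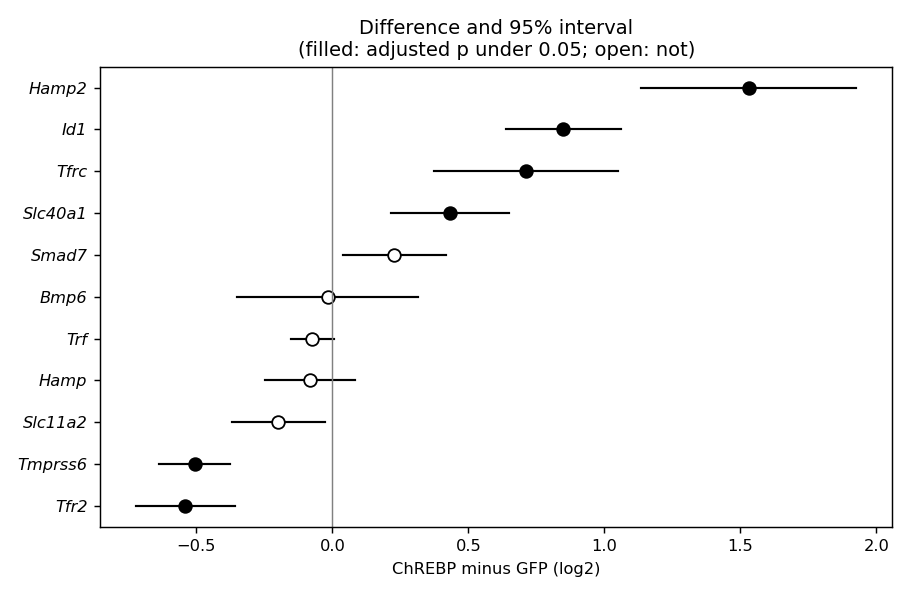
ChREBP minus GFP difference (log2, horizontal axis) of the 10 iron genes and Hamp2, with lines for the 95% interval, filled circles for an adjusted p under 0.05 and open circles for the rest. Hamp2, Id1, Tfrc and Slc40a1 lie right of 0, Tmprss6 and Tfr2 left of 0, and the interval of Hamp runs from -0.25 to 0.08.

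Among the genes of iron uptake, Tfrc for transferrin receptor 1, which takes in iron-loaded transferrin and whose transcript is stabilised by iron regulatory proteins when iron is scarce, rose. It ranged from 8.69 through a median of 8.96 to 9.38 on ChREBP arrays and from 7.64 through 8.42 to 8.51 on GFP arrays. No ChREBP array was as low as any GFP array. Tfrc averaged 9.01 ± 0.30 in ChREBP livers and 8.29 ± 0.33 in GFP livers (SD, n = 6 each). The rise was 0.71 (SE 0.16, limma adjusted p = 0.00391), or 1.64-fold. GFP 3 gave the low 7.64, and without it the rise was 0.58 (adjusted p = 0.00339).

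Dividing cells and erythroid precursors carry much transferrin receptor 1. All 7 proliferation markers rose, beside 13.3% of all genes called higher. The proliferation mean level ran from 7.78 to 8.15 on ChREBP arrays and from 6.34 to 6.68 on GFP arrays. Of 5 erythroid markers none was higher and 1, the erythroid heme synthesis gene Alas2, fell by 1.43, beside 13.7% of all genes called lower. The erythroid mean level ran from 5.69 to 5.89 on ChREBP arrays and from 6.07 to 6.25 on GFP arrays. The part of dividing cells in the rise of Tfrc was not tested.

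Trf, the gene of the plasma iron carrier transferrin, showed a small difference that did not pass although the arrays were apart. It ranged from 12.85 through a median of 12.86 to 12.90 on ChREBP arrays and from 12.91 through 12.92 to 13.01 on GFP arrays. These values lie nearer the top of the scale than those of Hamp, and the response of the probes there was not tested. The difference was -0.07 (SE 0.04, limma adjusted p = 0.150). The exact two-sided permutation test gave p = 0.00216, not adjusted over genes. That is the smallest value it can give here, reached because the arrays do not overlap. The SD was 0.02 in ChREBP livers and 0.04 in GFP livers (n = 6 each), below the spread that limma assumes for genes in general. Changes of that assumption gave different answers, since Trf passed with trended moderation (adjusted p = 0.0169) and with the methods' analysis of variance (adjusted p = 0.0153) but not with robust moderation (adjusted p = 0.188). It also passed with quantile normalization repeated (-0.09, adjusted p = 0.0448).

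Slc11a2 encodes the divalent metal transporter DMT1, which moves iron out of endosomes. It ranged from 7.25 through a median of 7.32 to 7.44 on ChREBP arrays and from 7.29 through 7.55 to 7.84 on GFP arrays, with overlap. The difference was -0.20 (SE 0.08, limma adjusted p = 0.0800). It passed without GFP 2, its lowest GFP array (-0.25, adjusted p = 0.0242), with quantile normalization repeated (-0.26, adjusted p = 0.0171) and with weights fitted to the arrays (-0.22, adjusted p = 0.0392).

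On the side of export, Slc40a1 for ferroportin, which is abundant in macrophages and also present in hepatocytes, rose. It ranged from 8.81 through a median of 9.13 to 9.37 on ChREBP arrays and from 8.45 through 8.67 to 9.01 on GFP arrays. Only GFP 3, at 9.01, reached into the range of the ChREBP arrays. Slc40a1 averaged 9.11 ± 0.20 in ChREBP livers and 8.68 ± 0.19 in GFP livers (SD, n = 6 each). The rise was 0.43 (SE 0.10, limma adjusted p = 0.00566), or 1.35-fold.

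Macrophage markers moved beside Slc40a1, and the counts below stand beside 13.3% of all genes called higher and 13.7% lower. Of 11 Kupffer cell markers 6 rose, among them C1qb by 0.59 and Adgre1 by 0.63, and 4 fell, among them Timd4 by 1.59. The Kupffer cell mean level ran from 8.33 to 8.67 on ChREBP arrays and from 8.18 to 8.52 on GFP arrays. Of 7 markers of recruited macrophages 5 rose and none fell, with a mean level of 8.05 to 8.40 on ChREBP arrays and 7.01 to 7.22 on GFP arrays. Their part in the rise of Slc40a1 was not tested.

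The arrays differed from their own group in more than 1 gene. ChREBP 5 was the lowest ChREBP array for 6 of the 10 genes (Tfrc, Tfr2, Slc40a1, Slc11a2, Trf and Tmprss6) and the highest for Bmp6. GFP 3 was the lowest GFP array for Tfrc and the highest for Tfr2 and Slc40a1. The calls of Id1, Tfrc, Slc40a1, Tfr2 and Tmprss6 held in each of the 23 alternatives tried, which include leaving out each array in turn.

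**Figure D3:**
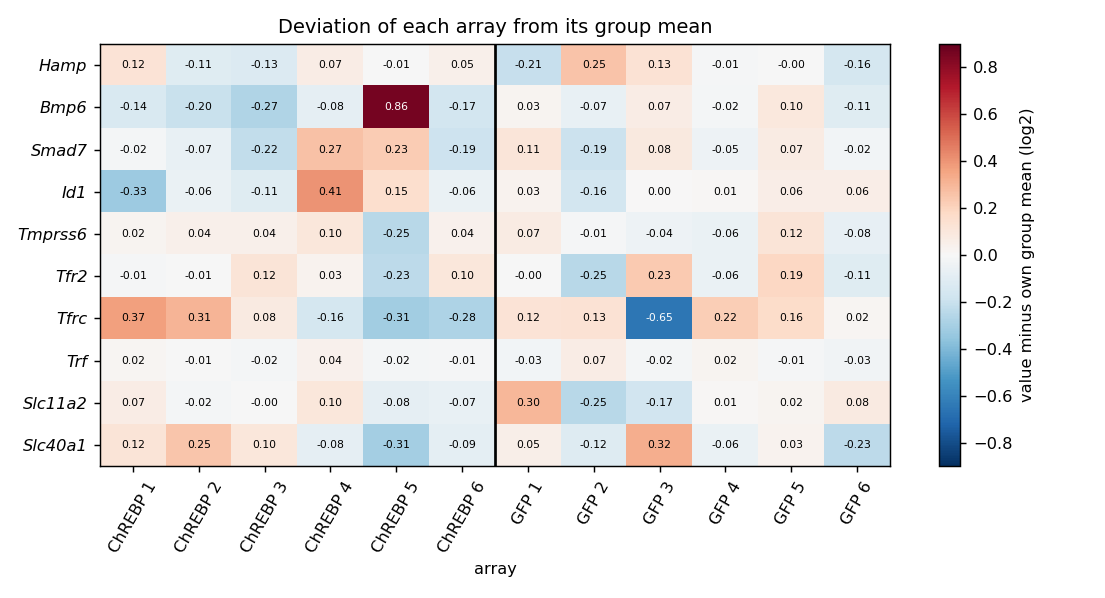
Deviation of each array from the mean of its own group (log2, colour and printed number) for the 10 iron genes, with ChREBP arrays left of GFP arrays. Bmp6 on ChREBP 5 and Tfrc on GFP 3 stand out, and ChREBP 4 and ChREBP 5 are high in both Id1 and Smad7.

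Whether Hamp followed the BMP and SMAD genes from liver to liver was examined within each group, in 6 relations of 6 arrays each. None passed after Benjamini-Hochberg adjustment over the 6. The strongest was that of Hamp with Id1 in GFP livers, with Pearson r = -0.80 (exact permutation p = 0.0694, adjusted 0.417) and Spearman rho = -0.60 (exact permutation p = 0.242, adjusted 0.483), and r = -0.82 without the 2 arrays farthest from the median of Id1. In ChREBP livers Hamp and Id1 gave r = 0.04 (exact permutation p = 0.958, adjusted 0.989) and rho = -0.03 (exact permutation p = 1.00). Without the 2 arrays farthest from the median of Id1 the ChREBP value was 0.43. The difference between the groups was not tested. Hamp with Smad7 gave r = 0.40 in ChREBP livers and -0.58 in GFP livers, with Spearman rho of 0.60 in ChREBP livers and -0.49 in GFP livers. Hamp with Bmp6 gave r = 0.09 in ChREBP livers and 0.05 in GFP livers, with rho of 0.60 in ChREBP livers and 0.14 in GFP livers. The exact permutation p of these r lay between 0.239 and 0.989, and that of these rho between 0.242 and 0.803. Without the 2 farthest arrays, r in ChREBP livers was 0.71 with Bmp6 and 0.47 with Smad7, and in GFP livers it was -0.39 with Bmp6 and 0.69 with Smad7. Each of these values is over the 4 arrays left, and those with Bmp6, with Smad7 in GFP livers and with Id1 in ChREBP livers thus rest on the arrays included.

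By deviation from the group means over the 12 arrays, the named genes most like Hamp were Cyp2c37 (r = 0.91), a cytochrome P450, Ankrd33b (0.90), Vmn1r200 (0.85), Krtap5-1 (0.85) and Ap5z1 (0.85), as a description over 12 livers and 19938 genes. Within the iron genes Trf was nearest (0.72) and Slc11a2 farthest (-0.71), and Hamp2 stood at 0.70.

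Another 65 measured genes of iron handling, in 6 lists chosen with earlier results of these data known, were read in the same fit. Of these 27 passed, 16 higher and 11 lower, beside 27.0% of all genes called, 13.3% higher and 13.7% lower. The shares of all genes include dim ones, and a comparison with genes of like level was not made here either.

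Of 14 ligands, receptors and partners of the hepcidin signal, 3 rose and 2 fell, beside 13.3% of all genes called higher and 13.7% lower. The median difference was 0.02. Furin, the gene of a protease that releases soluble hemojuvelin, ranged from 8.92 through 9.06 to 9.39 on ChREBP arrays and from 8.39 through 8.62 to 8.76 on GFP arrays. The groups did not overlap, and it rose by 0.50 (SE 0.09, limma adjusted p = 0.000538). Hjv for hemojuvelin itself ranged from 8.94 through 9.10 to 9.20 on ChREBP arrays and from 8.19 through 8.66 to 8.77 on GFP arrays, and it rose by 0.48 (adjusted p = 0.00118). Neo1 for neogenin, which binds hemojuvelin, rose by 0.20 (adjusted p = 0.00643). Bmp2, a second ligand of sinusoidal endothelium, fell by 0.33 (adjusted p = 0.0117), and without ChREBP 4 and ChREBP 5 its difference of -0.23 missed the threshold (adjusted p = 0.0541). The type 2 receptor gene Acvr2a fell by 0.24 (adjusted p = 0.0486), a call lost in 14 of the 23 alternatives and without any 1 array other than GFP 2 (-0.26 to -0.20, adjusted p from 0.0598 to 0.101). Hfe, the haemochromatosis gene, had a difference of -0.01.

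In the SMAD list 3 of 10 genes rose and 0 fell, a number of calls near the 27.0% of all genes, with a median difference of -0.02. Id3, a relative of Id1 with the same kind of regulation, ranged from 7.94 through 8.27 to 8.52 on ChREBP arrays and from 7.31 through 7.65 to 8.13 on GFP arrays. The groups overlapped, and it rose by 0.60 (SE 0.12, limma adjusted p = 0.00242). Its highest values came from ChREBP 5 (8.52) and ChREBP 4 (8.44), the arrays highest in pancreatic acinar markers. Fkbp1a, whose protein binds type 1 receptors and keeps them silent, rose by 0.35 (adjusted p = 0.000163). It too was highest on those 2 arrays, and the part of pancreas transcripts in Id3 and Fkbp1a was not tested. Smurf1, a ubiquitin ligase for SMAD proteins, rose by 0.22 (adjusted p = 0.0278), a call lost without ChREBP 1, ChREBP 2, ChREBP 3, GFP 2 or GFP 3 (0.19 to 0.21, adjusted p from 0.0556 to 0.0625), with the replicate block (adjusted p = 0.0638) or with quantile normalization repeated (0.16, adjusted p = 0.0635). Other target genes of the pathway did not pass. Smad6 had a difference of -0.04, Atoh8 of -0.01 and Bambi of -0.09, and Id2 of -0.18 (adjusted p = 0.0635).

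In the inflammatory and stress arm 2 of 10 genes rose and 4 fell, beside 13.3% of all genes called higher and 13.7% lower. The median difference was -0.13. Stat3 ranged from 8.98 through 9.06 to 9.08 on ChREBP arrays and from 9.18 through 9.42 to 9.62 on GFP arrays, and it fell by 0.36 (SE 0.06, limma adjusted p = 0.000641). Il6ra, the receptor for interleukin-6, fell by 0.38 (adjusted p = 0.0186), and Creb3l3, for a membrane-bound factor of hepatocytes that acts on Hamp, fell by 0.35 (adjusted p = 0.000945). Cebpa for the liver factor C/EBPalpha fell by 0.17 (adjusted p = 0.0179), a call lost without ChREBP 4 and ChREBP 5 (-0.14, adjusted p = 0.0650) or with the replicate block (adjusted p = 0.0580). Inhbb, for the subunit of activin B, rose by 0.52 (adjusted p = 0.000346) with no overlap between the groups. Il1b rose by 0.54 (adjusted p = 0.0298), a call lost in 8 alternatives, among them leaving out ChREBP 2, ChREBP 3, ChREBP 5, GFP 2 or GFP 3 (0.42 to 0.53, adjusted p from 0.0502 to 0.0680). Socs3, a target gene of STAT3, had a difference of -0.03 and Il6 of -0.16, and neither passed. Il6 averaged 3.44 in ChREBP livers and 3.60 in GFP livers, below the array medians of 5.96 to 6.05. At that level the values do not tell whether Il6 was expressed or changed.

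Among the 9 genes for iron storage and the iron regulatory proteins 1 rose and 1 fell, with a median difference of 0.05. Of all genes 13.3% were called higher and 13.7% lower. Aco1 for iron regulatory protein 1 ranged from 9.79 through 10.07 to 10.13 on ChREBP arrays and from 10.23 through 10.33 to 10.43 on GFP arrays, and it fell by 0.29 (SE 0.06, limma adjusted p = 0.00308). Ireb2 for iron regulatory protein 2 had a difference of -0.13 (adjusted p = 0.232). Ftl1 for ferritin light chain rose by 0.15 (adjusted p = 0.0218), a call lost without GFP 5 (0.13, adjusted p = 0.0511), when GFP 6 and ChREBP 6 were dropped together (0.15, adjusted p = 0.0618), with median centring (0.13, adjusted p = 0.0562) or with the replicate block (adjusted p = 0.0523). Fth1 for ferritin heavy chain had a difference of 0.05 (adjusted p = 0.372).

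Of 12 genes for iron transport and reduction 2 rose and 2 fell, beside 13.3% of all genes called higher and 13.7% lower. The median difference was -0.03. Lcn2 for lipocalin 2, which binds the iron carriers of bacteria and is induced by inflammation, ranged from 9.24 through 9.73 to 10.21 on ChREBP arrays and from 6.71 through 6.97 to 7.58 on GFP arrays. It rose by 2.66 (SE 0.17, limma adjusted p = 9.11e-08), the largest rise in the 6 lists. Its highest values came from ChREBP 4 (10.21), ChREBP 2 (9.95) and ChREBP 5 (9.80). These were the arrays highest in pancreatic acinar markers, and the part of pancreas transcripts in Lcn2 was not tested. Slc39a14 for ZIP14, which takes up iron not bound to transferrin, ranged from 6.72 through 7.31 to 7.35 on ChREBP arrays and from 7.41 through 7.54 to 7.80 on GFP arrays. The groups did not overlap, and it fell by 0.39 (adjusted p = 0.0138). The metalloreductase gene Steap2 fell by 0.33 (adjusted p = 0.00645). Its relative Steap4 rose by 0.18 (adjusted p = 0.0373), a call lost in 9 alternatives, among them leaving out any 1 of ChREBP 1 to ChREBP 4, GFP 2, GFP 5 or GFP 6 (0.16 to 0.18, adjusted p from 0.0528 to 0.0821). Cp for ceruloplasmin, the ferroxidase of plasma, had a difference of -0.01.

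In heme and haemoglobin scavenging 5 of 10 genes rose and 2 fell, beside 13.3% of all genes called higher and 13.7% lower, with a median difference of 0.09. Hmox1 for heme oxygenase 1, which frees iron from heme, ranged from 8.86 through 9.26 to 9.41 on ChREBP arrays and from 8.06 through 8.33 to 8.64 on GFP arrays. The groups did not overlap, and it rose by 0.88 (SE 0.10, limma adjusted p = 2.05e-05), or 1.84-fold. Like Lcn2, Hmox1 was highest on ChREBP 4 (9.41), ChREBP 2 (9.37) and ChREBP 5 (9.31), and the part of pancreas transcripts was not tested. Slc48a1 for the heme transporter of lysosomes ranged from 8.30 through 8.53 to 8.88 on ChREBP arrays and from 7.84 through 7.90 to 8.00 on GFP arrays, and it rose by 0.66 (adjusted p = 0.000110). Blvrb, a biliverdin reductase gene, rose by 0.32 (adjusted p = 0.0206, and 0.25 with adjusted p = 0.0772 without ChREBP 4 and ChREBP 5), and Flvcr1 rose by 0.32 (adjusted p = 0.0116, and 0.15 with adjusted p = 0.0511 as the mean of its rows). Flvcr2 rose by 0.22 (adjusted p = 0.0384), a call lost in 10 alternatives, among them leaving out ChREBP 2, ChREBP 4, ChREBP 6, GFP 1, GFP 4 or GFP 5 (0.18 to 0.23, adjusted p from 0.0529 to 0.0835).

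The haemoglobin receptor gene Cd163 of macrophages moved the other way. It ranged from 5.12 through 5.24 to 5.57 on ChREBP arrays and from 7.07 through 7.31 to 7.92 on GFP arrays, and it fell by 2.10 (SE 0.13, limma adjusted p = 4.31e-08). The ChREBP values lay below the array medians (5.96 to 6.05), so the size of the fall is uncertain. The part of macrophages, whose markers are given beside Slc40a1, in the fall of Cd163 was not tested. Lrp1 for the hemopexin receptor fell by 0.38 (adjusted p = 0.0122). The plasma scavengers Hp (-0.10, adjusted p = 0.0986) and Hpx (-0.05) did not pass.

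**Figure D4:**
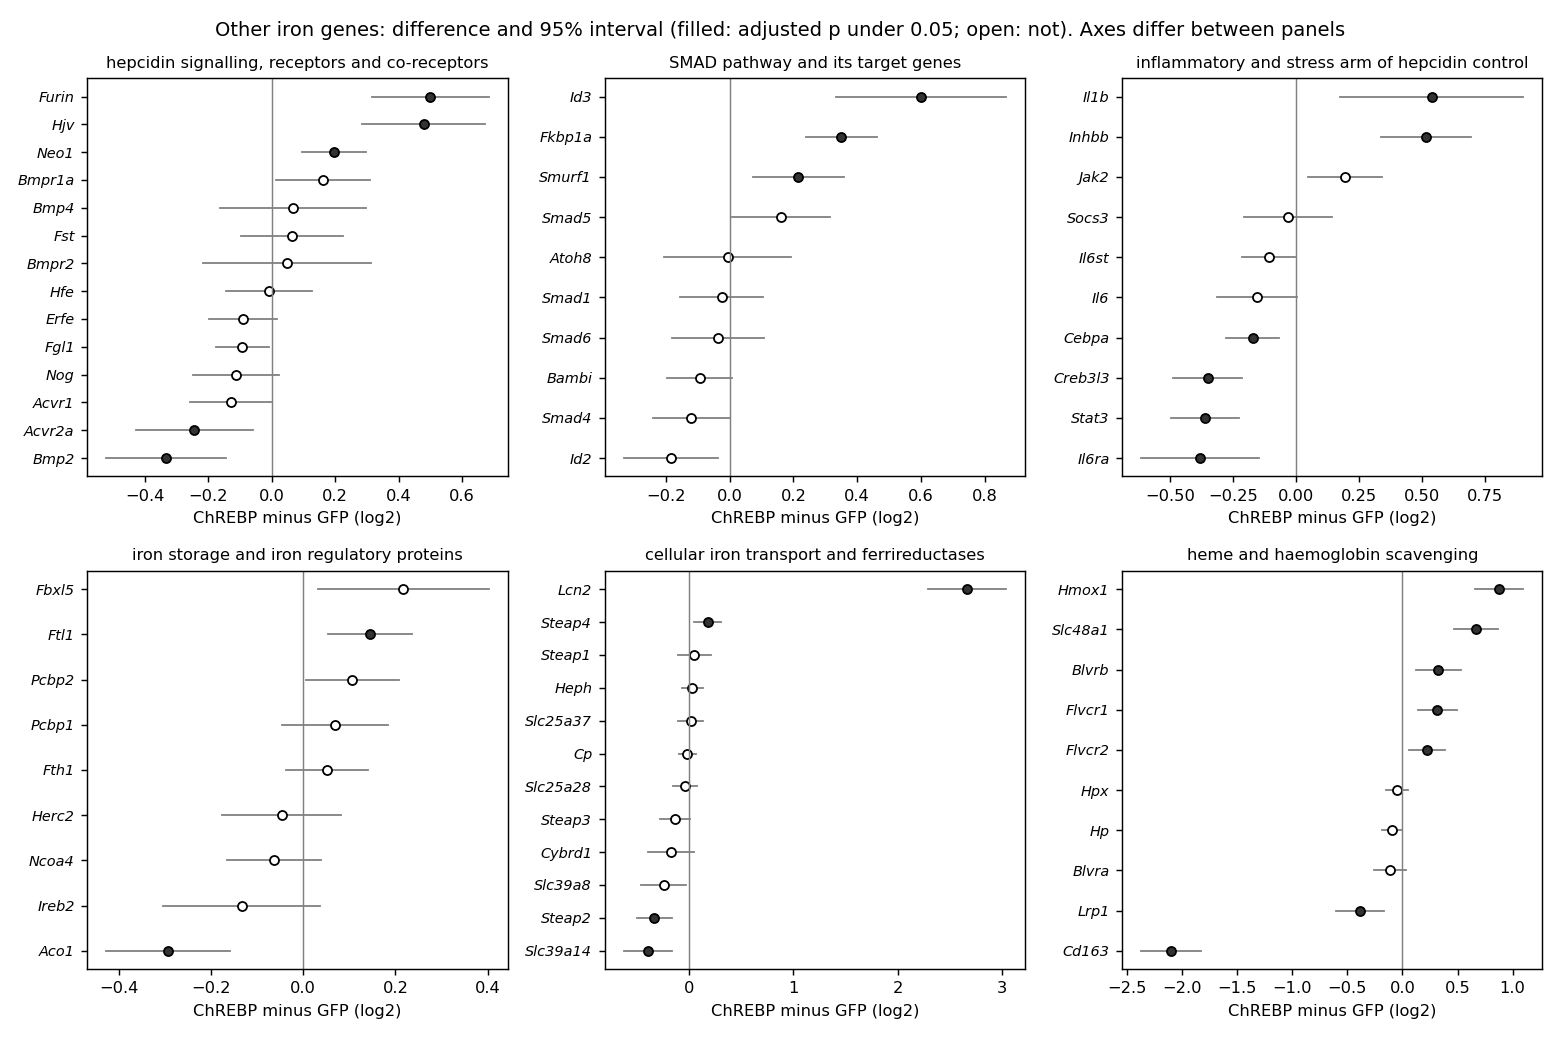
ChREBP minus GFP difference (log2, horizontal axis, scaled separately in each panel) of 65 further iron genes in 6 lists, with lines for the 95% interval, filled circles for an adjusted p under 0.05 and open circles for the rest. Lcn2 at 2.66 and Cd163 at -2.10 lie far from the other genes of their panels.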

How the data were processed

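Total RNA of 12 whole livers had been amplified, biotin-labelled and hybridised by the authors to mouse gene arrays from Affymetrix, with each mouse on an array of its own. The deposited values are on the log2 scale. For their making the submitters' processing notes list RMA and Partek, with no version. RMA corrects background, sets the arrays to 1 distribution and summarises the probes of a transcript, which compresses differences of dim genes. Detection calls and scan dates were not used here. The published methods cover arrays of another type, for Phf2, and only guided the choice of test. Of 35556 rows, 21789 carry 1 gene symbol in the platform annotation, 1621 several and 12146 none. Names were updated by Entrez ID through RefSeq (GRCm38.p6) for 21698 rows. A gene with several rows was represented by the brightest, which gave 19938 genes, with no filter.

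Groups came from the sample titles, which number 6 biological replicates each. All genes were fitted by lmFit and eBayes of limma 3.58.1 (R 4.3.3) without covariates, in two-sided tests, and the code was first tested on simulated data. The 10 iron genes, the lists, the marker lists and the alternatives were chosen with earlier results of these data known. Named were the 10 genes, Mlxipl, all genes of the 6 pathway lists that passed (up to 4 a list by the smallest p, the others to complete a count), members of a count, markers beside a gene and the 5 named genes most like Hamp, with predicted genes and small RNAs left out. Exact permutation tests were run for the 10 genes and Mlxipl, and those of Hamp and Trf are given. They also served for the relations of Hamp to other genes. The 23 alternatives changed the scaling, the choice of row, the filter on dim genes, the moderation, the weights, the test, the replicate block and the arrays left out. The number of arrays limits the precision.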

Additional observations from a re-analysis of the deposited data

Results flagged for a closer look

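In 78 sets of 6 arrays (1 set for each gene followed and each group), 7 had 1 array whose gap to the next, as a share of the whole range, passed Dixon's 95% limit. Chance gives about 1 in 20 such sets. Of the 7, 4 came from ChREBP 5. Bmp6 stood at 7.60 on ChREBP 5, against 6.47 to 6.66 on the other ChREBP arrays. Tmprss6 stood at 7.60 on ChREBP 5, against 7.87 to 7.95 on the others. Tfr2 stood at 7.46 on ChREBP 5, against 7.68 to 7.81. Aco1 stood at 9.79 on ChREBP 5, against 10.04 to 10.13. Pancreatic acinar markers were high on that array (11.90) and on ChREBP 4 (12.09), where none of these genes stood apart, and their part was not tested.

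The other 3 were GFP arrays. Tfrc stood at 7.64 on GFP 3, against 8.31 to 8.51 on the other GFP arrays. Hjv stood at 8.19 on GFP 3, against 8.62 to 8.77. Id1 stood at 6.22 on GFP 2, against 6.39 to 6.45.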

How the results depend on the processing

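In 23 alternatives, 12 of which leave out 1 array, 5 to 7 of the 10 iron genes passed (5 as reported) and 4439 to 5844 of all genes (5375 as reported). Of 230 values of the 10 genes, 214 kept direction and side of the threshold. The calls of Id1, Tfrc, Slc40a1, Tfr2 and Tmprss6 held in all 23, and Hamp stayed between -0.13 and -0.03 without passing (adjusted p from 0.236 to 0.758). With quantile normalization repeated 4 of the 10 genes were lower in place of 2, as Trf and Slc11a2 joined. Bmp6 ran from -0.19 to 0.037 with 1 array left out, changing sign without any 1 of ChREBP 1 to ChREBP 4, ChREBP 6 or GFP 5. Without the 2 arrays farthest from the median, the relations of Hamp in GFP livers changed sign with Smad7 (0.69) and with Bmp6 (-0.39), on 4 arrays each. Where a cause is not named, it was not tested.

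Correlations of deviations between arrays of equal replicate number ran from -0.06 to 0.25 over the 6 numbers. Of the 6 ChREBP arrays only 1, ChREBP 6, was closest to the GFP array of its own number (0.25). With the replicate block 4439 of all genes and 5 of the 10 iron genes passed. Scaling moved the median of all genes from -0.04 to -0.06 at most, with median centring. Probe signal over background was not used here, so differences of dim genes may be understated.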
